A study of Homo sapiens with 15 samples.

Results

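The genes that restrain ERK signalling from within the FGF pathway were followed across a knockdown/rescue experiment on EWS/FLI, the fusion oncoprotein of Ewing sarcoma. The 10 genes are IL17RD, SPRY1, SPRY2, SPRY4, SPRED1, SPRED2, SPRED3, DUSP4, DUSP5 and DUSP6, out of 57820 genes counted. They were chosen by their known function, with earlier results of these data known. Counts of members set beside shares of all genes therefore cannot be taken as independent of these data. IL17RD was in addition selected on a measured value, its lower level with Δ22 than with the empty vector in these same libraries. The contrast of Δ22 with iEF therefore chose part of the set, so it is described here without a test for any gene, as is each contrast of IL17RD that uses iEF or Δ22. All 10 had enough counts to be tested, among the 28793 genes with a mean of 1 count or more over the libraries.

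RNA was sequenced from 15 libraries of A673 cells, an established Ewing sarcoma line known to carry an activating BRAF mutation, with 3 libraries in each of 5 conditions. All conditions were transduced with a retroviral shRNA on day 1 and a retroviral vector on day 5, and selected with 2 µg/mL puromycin and 400 µg/mL hygromycin B until day 16. iLuc cells carried an shRNA against luciferase with an empty vector and so kept endogenous EWS/FLI (endo-EF). iEF cells carried the shRNA against EWS/FLI with an empty vector. The rescued cells carried that same shRNA with a cDNA for wildtype EWS/FLI (WT-EF), for Δ22 (del22 in the labels), which lacks the EWS domain, or for DAF, in which tyrosines of the EWS domain are changed to alanine. All conditions thus share 1 cell line, and the cDNAs are expressed from a viral promoter rather than from the EWSR1 locus. A replicate set runs through all 5 conditions and was treated as a batch in the study's methods, which do not state outright whether the 3 sets began from separate cultures. P-values measure the spread between these libraries, which may be in part technical.

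FGF receptors and other receptor tyrosine kinases signal through RAS, RAF, MEK and ERK, and active ERK in turn raises the transcription of proteins that dampen the same cascade. IL17RD (Sef) is a transmembrane protein that acts on FGF receptors and on MEK and ERK, the Sprouty proteins (SPRY) act between receptor and RAF, the SPRED proteins recruit neurofibromin to RAS, and the dual-specificity phosphatases (DUSP) remove the activating phosphates of ERK. Because these genes are induced by ERK, their transcripts are widely read as a gauge of ERK output, although protein and phosphorylation were not measured in these libraries.

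EWS/FLI binds DNA through the FLI domain, which recognises the ETS core GGAA, so the promoter windows of the members are shown with each GGAA, or TTCC where the core lies on the other strand, in capitals. RefSeq windows of 300 bases, from 250 before to 50 after an annotated start in GRCh38.p14, were found for 8 of the 10 members, 14 windows in all, and each matched GRCh37 at 1 place. DUSP4 and DUSP5 had none in the table used. Shown are the windows at the outermost starts of IL17RD, the gene that was higher with WT-EF than with DAF, of SPRY1, which was lower with DAF than in iEF, of SPRY2, the member with the widest range between conditions, and of DUSP6, the member with the highest level per kilobase. They lie, in GRCh37, at chr3:57204296-57204595 on the minus strand, chr4:124317700-124317999 on the plus strand, chr13:80915212-80915511 on the minus strand and chr12:89746229-89746528 on the minus strand.
IL17RD: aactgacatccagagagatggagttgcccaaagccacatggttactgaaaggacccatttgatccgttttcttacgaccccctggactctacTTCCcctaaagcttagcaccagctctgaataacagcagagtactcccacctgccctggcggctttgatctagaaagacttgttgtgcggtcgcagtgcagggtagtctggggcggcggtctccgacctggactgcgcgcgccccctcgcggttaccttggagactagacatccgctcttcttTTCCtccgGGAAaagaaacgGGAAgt
SPRY1: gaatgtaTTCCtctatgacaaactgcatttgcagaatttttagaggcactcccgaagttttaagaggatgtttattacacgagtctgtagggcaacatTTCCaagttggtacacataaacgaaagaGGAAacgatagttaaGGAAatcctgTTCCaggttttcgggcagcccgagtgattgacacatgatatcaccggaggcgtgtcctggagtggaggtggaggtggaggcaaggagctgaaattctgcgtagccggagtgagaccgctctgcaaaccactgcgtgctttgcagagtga
SPRY2: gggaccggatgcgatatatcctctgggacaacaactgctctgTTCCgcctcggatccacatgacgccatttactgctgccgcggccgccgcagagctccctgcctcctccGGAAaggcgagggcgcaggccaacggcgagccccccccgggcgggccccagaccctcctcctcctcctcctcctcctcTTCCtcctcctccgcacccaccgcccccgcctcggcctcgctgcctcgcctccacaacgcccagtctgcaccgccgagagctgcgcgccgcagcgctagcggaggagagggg
DUSP6: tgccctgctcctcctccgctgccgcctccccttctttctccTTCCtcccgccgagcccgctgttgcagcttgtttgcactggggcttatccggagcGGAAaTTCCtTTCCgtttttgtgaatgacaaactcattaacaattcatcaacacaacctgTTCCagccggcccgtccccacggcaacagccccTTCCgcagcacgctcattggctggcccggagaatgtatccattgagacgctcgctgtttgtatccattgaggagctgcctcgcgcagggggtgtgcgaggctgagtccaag
The core was found on either strand 4, 5, 3 and 6 times in these windows. Across all 14 windows it occurred between 1 and 6 times, against a median of 3 over 35114 windows of the same length, of which 95.5% held it. The lowest count, 1, was that of the other IL17RD window, which is not shown. The higher-affinity form CCGGAA occurred in the SPRY2 window shown and in a second SPRY1 window, which together are 2 of 14 windows, against 17.2% of all windows. No member window held GGAAGGAA, the shortest repeat of the GGAA microsatellites that EWS/FLI binds, against 3.67% of all windows. The AP-1 motif TGANTCA occurred in 1 SPRED2 window and 1 SPRED3 window, against 7.71% of all windows. These counts describe letters in 300 bases and say nothing about binding, and CCGGAA and GGAAGGAA each contain GGAA.

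Total counts ran from 28659475 to 41859880 per library. FLI1, whose exons carry the reads of the fusion, had a level of 49.4 ± 2.62 (SD, n = 3) in CPM, the counts of a gene scaled to the size of its library with TMM factors, in iLuc and 14.6 ± 1.44 in iEF. It had 17.6 ± 1.39 CPM in WT-EF, 31.2 ± 6.08 in Δ22 and 24.3 ± 2.64 in DAF, so FLI1 reads were not equal between the rescued conditions. WT-EF was not called different from iEF (log2 fold change 0.27, edgeR adjusted p = 0.0538), whereas DAF was higher (0.74, edgeR adjusted p = 0.000335). Reads of residual endogenous fusion and of a cDNA were not separated, so the level of each cDNA is not known. The part that unequal FLI1 reads play in the contrasts between cDNAs was not tested. Of the listed Ewing sarcoma markers, NR0B1 averaged 55.0 CPM in iLuc and 5.71 in iEF, and PRKCB 467.1 and 22.8. STEAP1 averaged 181.8 and 46.0 CPM, and NKX2-2, near the floor, 5.23 and 0.943. CCND1 did not follow, with 1745.8 CPM in iLuc and 1810.5 in iEF. CD99, whose 2 identifiers in the count table stand for pseudoautosomal copies, had at most 3 counts in any library. Whether reads that match both copies were counted was not tested, so CD99 does not serve as a level here. Markers of other cell types summed to between 1.05 and 5.26 CPM, with 5 of the 6 listed matched. Levels are in this CPM unless given per kilobase, and fold changes are those of edgeR on the log2 scale with a standard error (SE).

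**Figure D1:**
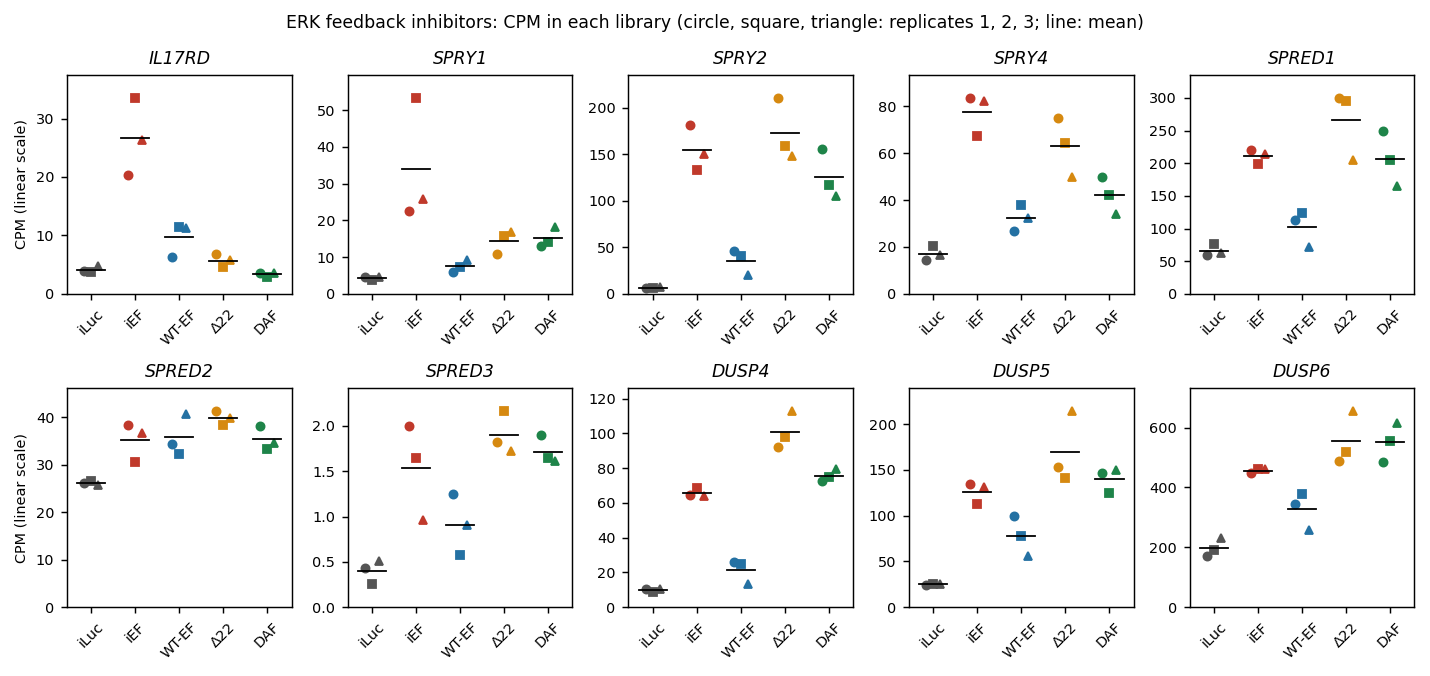
Normalized level in CPM (linear axis from 0) of the 10 ERK feedback inhibitors in each of the 15 libraries, by condition. Circles, squares and triangles are replicates 1, 2 and 3 and the line is their mean. iLuc has the lowest mean in 9 of 10 panels and Δ22 the highest in 7.

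Loss of EWS/FLI was accompanied by higher levels across the group. In iLuc, with endo-EF present, 9 of the 9 members tested were lower than in iEF, against 22.1% of all genes tested that were lower and 19.5% that were higher. The median log2 fold change over the 10 members was -2.25, against 0.04 over all genes. This median includes IL17RD, which was selected on its iEF level, so it is a description, as is each median against iEF below. The iLuc and iEF libraries did not overlap for any of the 9 members tested, nor, as a description, for IL17RD. All contrasts against iEF share the same 3 iEF libraries and are given side by side for that reason. In bulk RNA, fewer cells expressing a gene and less transcript per cell cannot be told apart.

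IL17RD, at chromosome 3, 57124010 to 57204334 on the minus strand of GRCh37, acts at the receptor level. It had 20.4, 33.5 and 26.3 CPM in the iEF libraries, and 3.88, 3.76 and 4.75 in iLuc. With Δ22 it had 6.80, 4.59 and 5.72 CPM, with DAF 3.66, 2.85 and 3.66, and with WT-EF 6.26, 11.4 and 11.3. Every library with a cDNA thus lay under the lowest iEF library. Compared with iEF, the log2 difference was -2.21 (SE 0.24) for Δ22, -2.97 (SE 0.25) for DAF, -1.48 (SE 0.23) for WT-EF and -2.69 (SE 0.24) for endo-EF, which are descriptions. Ordered from low to high, the conditions ran DAF, iLuc, Δ22, WT-EF, iEF, with iLuc and Δ22 overlapping, and Δ22 and WT-EF overlapping. DAF was lower than Δ22 by a log2 difference of -0.76 (SE 0.24), in 3 of 3 replicate sets, and by -0.47 without the first Δ22 library.

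Contrasts of IL17RD that use neither iEF nor Δ22 could be tested. WT-EF cells had more IL17RD transcript than iLuc cells, by 2.34-fold in mean CPM (log2 fold change 1.21, SE 0.24, edgeR adjusted p = 0.00221). They also had more than DAF cells, by 2.85-fold (log2 fold change 1.50, SE 0.24, edgeR adjusted p = 0.000300). In both contrasts the libraries did not overlap. Of the 10 members, IL17RD was the single gene called higher with WT-EF than with DAF.

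Of the Sprouty genes, and of all members, SPRY2 spanned the widest range, with a highest condition mean 26.9 times the lowest. SPRY2, on chromosome 13, had 6.17, 5.92 and 7.13 CPM in iLuc and 180.8, 133.1 and 150.3 in iEF. This is a 24.1-fold lower mean with endo-EF (log2 fold change -4.57, SE 0.22, edgeR adjusted p = 1.97e-09), the lowest log2 value among the members in that contrast. WT-EF brought it to 45.6, 41.0 and 20.0 CPM (log2 fold change -2.16 against iEF, SE 0.19, edgeR adjusted p = 1.47e-06). The DAF libraries, at 155.4, 116.4 and 104.8 CPM, overlapped with iEF, and the difference did not pass (log2 fold change -0.32, 95% interval -0.71 to 0.08, edgeR adjusted p = 0.343). The Δ22 libraries, at 210.2, 159.0 and 147.6 CPM, also overlapped with iEF. SPRY2 thus lay near its iEF level with both EWS-domain mutants, whereas WT-EF placed it between iLuc and iEF with no overlap with either.

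SPRY1, on chromosome 4, lay under iEF with every cDNA. It had 4.55, 3.90 and 4.69 CPM in iLuc and 22.6, 53.3 and 25.9 in iEF (log2 fold change -2.90, SE 0.25, edgeR adjusted p = 3.59e-07). The second iEF library stood well above the other two, and without it the log2 fold change was -2.47. With DAF it had 13.1, 14.2 and 18.2 CPM, all under iEF (log2 fold change -1.13, SE 0.23, edgeR adjusted p = 0.00597). That call was lost without DAF replicate 2 (adjusted p = 0.0580) or without replicate 2 of every condition (adjusted p = 0.0875, log2 fold change -0.65). With Δ22 it had 10.9, 15.7 and 16.9 CPM, again all under iEF, a log2 difference of -1.21 (SE 0.23) given as a description. Δ22 and DAF overlapped, with a log2 difference of 0.08 (95% interval -0.42 to 0.58). WT-EF, at 5.95, 7.35 and 9.27 CPM, was under both mutants, and its difference from DAF passed (log2 fold change -1.02, SE 0.24, edgeR adjusted p = 0.00453).

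SPRY4, on chromosome 5, had 14.3, 20.6 and 16.7 CPM in iLuc, 83.5, 67.2 and 82.3 in iEF and 27.0, 37.9 and 32.2 in WT-EF. It was lower than iEF both with endo-EF (log2 fold change -2.18, SE 0.18, edgeR adjusted p = 2.57e-07) and with WT-EF (log2 fold change -1.27, SE 0.18, edgeR adjusted p = 7.40e-05). With DAF it had 50.0, 42.0 and 33.9 CPM, all under iEF (log2 fold change -0.90, SE 0.18, edgeR adjusted p = 0.00420). WT-EF and DAF overlapped for this gene, with a log2 difference of -0.37 that did not pass (95% interval -0.74 to 0.01, edgeR adjusted p = 0.148). That difference passed with no filter on low counts (log2 fold change -0.38, edgeR adjusted p = 0.0239). With Δ22 SPRY4 had 75.0, 64.2 and 49.7 CPM, which overlapped with iEF. A gene on the opposite strand lies within the span of SPRY4 and had at most 127 counts in a library, against at least 467 for SPRY4. Whether the counting used strand is not given in the sources used here, so their reads could not be told apart.

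The SPRED genes differed from each other. SPRED1, on chromosome 15, had 60.0, 75.9 and 62.1 CPM in iLuc and 220.6, 199.1 and 213.6 in iEF, and fell with endo-EF (log2 fold change -1.69, SE 0.15, edgeR adjusted p = 4.03e-07). It fell with WT-EF too, to 112.6, 123.4 and 71.7 CPM (log2 fold change -1.08, SE 0.15, edgeR adjusted p = 5.54e-05). With DAF it had 248.5, 205.2 and 165.8 CPM and with Δ22 299.7, 294.7 and 204.7, both ranges including iEF libraries.

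SPRED2, on chromosome 2, was the flattest member. It had between 25.6 and 26.5 CPM in iLuc and between 30.5 and 41.2 in the other 12 libraries. The difference between iLuc and iEF passed (log2 fold change -0.42, SE 0.10, edgeR adjusted p = 0.00245), and was lost without replicate 1 of every condition (adjusted p = 0.0669). WT-EF and DAF were not called different from iEF. WT-EF differed from iEF by 0.03 on the log2 scale (95% interval -0.18 to 0.23), and DAF by 0.01 (95% interval -0.20 to 0.22). SPRED3, on chromosome 19, had 9 to 83 counts per library. Its level was 0.396 ± 0.130 CPM in iLuc and 1.54 ± 0.528 in iEF (SD, n = 3). It was lower with endo-EF (log2 fold change -1.93, SE 0.34, edgeR adjusted p = 0.000254), whereas the WT-EF difference of -0.75 had an adjusted p of 0.0745 by edgeR. It passed without iEF replicate 3 (adjusted p = 0.0246) or without replicate 3 of every condition (adjusted p = 0.0354).

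The phosphatases fell with endo-EF and with WT-EF, and their means with both mutants lay above iEF. DUSP4, a nuclear phosphatase of ERK and related kinases on chromosome 8, had 10.3, 8.84 and 10.5 CPM in iLuc and 64.8, 68.6 and 63.7 in iEF (log2 fold change -2.73, SE 0.19, edgeR adjusted p = 4.22e-08). WT-EF lowered it to 25.8, 25.0 and 13.6 CPM (log2 fold change -1.62, SE 0.18, edgeR adjusted p = 9.34e-06). DAF gave 72.9, 74.7 and 79.3 CPM and Δ22 92.2, 98.0 and 112.7. DUSP4 is the member whose 5 conditions did not overlap at any step of the order iLuc, WT-EF, iEF, DAF, Δ22, although the DAF difference from iEF of 0.21 did not pass (95% interval -0.17 to 0.58, edgeR adjusted p = 0.549).

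DUSP5, the nuclear ERK phosphatase on chromosome 10, had between 24.7 and 25.7 CPM in iLuc and between 112.3 and 134.4 in iEF (log2 fold change -2.32, SE 0.18, edgeR adjusted p = 1.22e-07). Its WT-EF libraries had 99.1, 78.2 and 55.4 CPM, all under iEF (log2 fold change -0.70, SE 0.17, edgeR adjusted p = 0.00632). Its DAF libraries had 146.1, 125.2 and 150.0 CPM, and those of Δ22 had 153.5, 140.9 and 213.9.

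DUSP6, the cytoplasmic ERK phosphatase on chromosome 12, had 170.1, 191.0 and 232.3 CPM in iLuc and 447.8, 461.1 and 460.2 in iEF (log2 fold change -1.21, SE 0.15, edgeR adjusted p = 8.45e-06). Per kilobase of exon it was the member with the highest level in iEF, at 118.3 ± 1.93 CPM in iEF (SD, n = 3), followed by DUSP5 with 49.8 ± 4.77 and SPRY2 with 48.2 ± 7.53, and IL17RD had 2.79 ± 0.686. With WT-EF it had 345.6, 378.8 and 256.4 CPM, a difference from iEF that passed (log2 fold change -0.47, SE 0.14, edgeR adjusted p = 0.0216). That call was lost in 5 of the fits that left out replicates, among them the fit without the third WT-EF library (log2 fold change -0.23, adjusted p = 0.0951). DAF gave 484.0, 554.7 and 616.3 CPM and Δ22 gave 487.6, 518.9 and 654.3, all above iEF. The DAF difference of 0.27 did not pass (edgeR adjusted p = 0.292), and passed without that same WT-EF library (adjusted p = 0.0342).

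**Figure D2:**
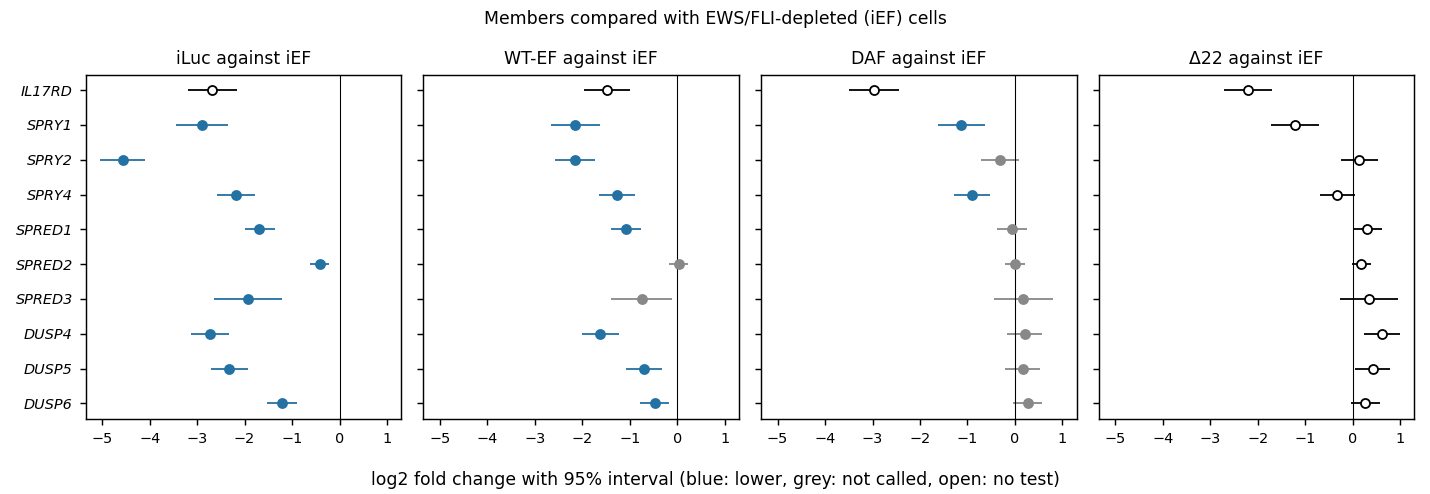
Log2 fold change (x axis) with its 95% interval for each member in iLuc, WT-EF, DAF and Δ22 against the same iEF libraries. Blue points passed at an adjusted p under 0.05 and were lower, grey points did not pass and open points were not tested. All 9 filled points of iLuc are blue, 7 of WT-EF and 2 of DAF.

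Over the group, WT-EF lowered 7 of the 9 members tested against iEF, where 17.0% of all genes were lower. The median over the 10 members, with IL17RD included as a description, was -1.18. DAF lowered 2 of 9, SPRY1 and SPRY4, where 6.19% of all genes were lower, and the median over the 10 was -0.02. With Δ22 the median was 0.23, with IL17RD at -2.21 and SPRY1 at -1.21 the members farthest below and DUSP4 at 0.62 the farthest above. The 3 Δ22 libraries lay under all iEF libraries for IL17RD and SPRY1, above them for SPRED2, DUSP4, DUSP5 and DUSP6, and overlapped with them for SPRY2, SPRY4, SPRED1 and SPRED3.

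The return towards iLuc can be expressed within each replicate set as the share of the CPM difference between iEF and iLuc. WT-EF returned 87.9% ± 8.20 of it for SPRY1, 80.3% ± 9.61 for SPRY2, 79.5% ± 12.8 for DUSP4, 74.1% ± 17.1 for SPRED1 and 73.6% ± 9.73 for SPRY4 (SD, n = 3). For DUSP6 it returned 52.2% ± 32.4, for DUSP5 47.8% ± 21.3 and for SPRED3 45.5% ± 32.3, and for SPRED2 the share was -15.8% ± 41.8. DAF returned 58.7% ± 13.4 for SPRY4, 56.0% ± 21.5 for SPRY1 and 19.8% ± 10.4 for SPRY2. For DUSP4, DUSP5 and DUSP6 the DAF share was negative in every replicate set, with means of -18.2%, -14.2% and -38.7%, which means a level above iEF. For IL17RD the mean shares were 76.4% with WT-EF, 91.7% with Δ22 and 103% with DAF, as a description. With Δ22 the mean share was 61.2% ± 17.0 for SPRY1 and 22.8% ± 23.5 for SPRY4. It was negative for the other 7 members, from -11.8% ± 12.0 for SPRY2 to -83.2% ± 98.6 for SPRED2. SPRY2, SPRED1 and SPRED3 each had a positive set among these. The SPRED2 mean is drawn by -197% in set 2, where iLuc had 26.5 CPM and iEF 30.5, a small difference to divide by.

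The rescue was incomplete for the group. Compared with iLuc, all 10 members were higher in WT-EF. Of all 28793 genes tested, 10.7% were higher in that contrast and 2601 genes were lower. The median log2 fold change of the members was 1.01, against -0.01 over all genes. This was not particular to the members. Of 12 other phosphatases and feedback genes tested, 7 were higher and 1 lower, with a median of 1.15. Of 19 ERK target genes, 9 were higher and 3 lower, with a median of 0.24. The study also reported incomplete rescue by WT-EF over the transcriptome. SPRY2 had 5.54-fold more in mean CPM than in iLuc (log2 fold change 2.42, SE 0.21, edgeR adjusted p = 4.60e-06) and DUSP5 3.08-fold more (log2 fold change 1.62, SE 0.18, edgeR adjusted p = 3.15e-05). SPRY1 was at the limit (log2 fold change 0.75, SE 0.25, edgeR adjusted p = 0.0443), and did not pass without the replicate block (edgeR adjusted p = 0.0765). The count was 5 of 10 without replicate 1 of every condition and also 5 without replicate 2, with all 10 log2 fold changes still above 0. The third WT-EF library was the lowest of its condition for SPRY2, SPRED1, DUSP4, DUSP5 and DUSP6, and the highest for SPRY1 and SPRED2.

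Between intact and mutated EWS domain, 7 of the 10 members were lower with WT-EF than with DAF, where 16.1% of all genes were lower, and 1 was higher, where 12.4% of all genes were higher. SPRY2 (log2 fold change -1.84, SE 0.19, edgeR adjusted p = 1.09e-05) and DUSP4 (log2 fold change -1.83, SE 0.18, edgeR adjusted p = 7.50e-06) differed most, and IL17RD went the other way. SPRY1 and SPRED1 followed, both with -1.02 (SE 0.24 and 0.15), then SPRED3 with -0.93 (SE 0.30), DUSP5 with -0.85 (SE 0.17) and DUSP6 with -0.74 (SE 0.14). The SPRED3 call, at an adjusted p of 0.0296 by edgeR, was lost in 6 of the fits that left out replicates, with adjusted p up to 0.190. SPRY4 and SPRED2 did not pass in the main test, although SPRY4 did with no filter on low counts. For SPRED2 the 95% interval ran from -0.19 to 0.22.

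**Figure D3:**
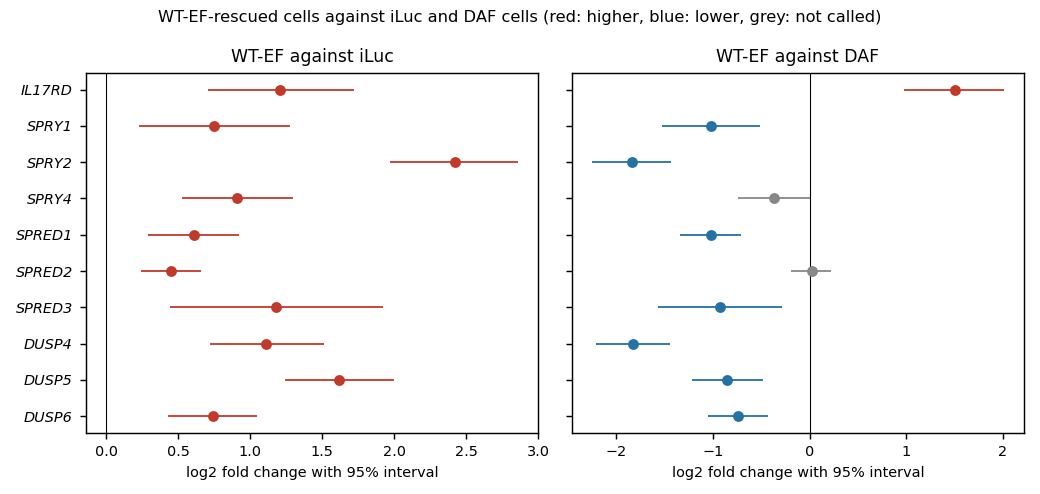
Log2 fold change (x axis) with its 95% interval for each member in WT-EF against iLuc (left) and against DAF (right). Red points were higher and blue points lower at an adjusted p under 0.05, and grey points did not pass. All 10 points on the left are red, and on the right 7 are blue and IL17RD is red.

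DAF and Δ22 were not told apart by the main test in any of the 9 members examined, where 1.33% of all genes differed by edgeR. Before adjustment, 4 of the 9 had p under 0.05, and DESeq2 called 0. The largest difference among these was that of SPRY4, lower with DAF (log2 fold change -0.58, 95% interval -0.96 to -0.21, edgeR adjusted p = 0.157). The result turned on the fit: 5 members were lower with DAF when the model held just the 6 libraries compared, 4 without the filter on low counts, and 1, DUSP4, without the third WT-EF library. Over all genes, the calls rose in the same fits from 382 to 2744, 1214 and 741. For DUSP6 the difference was -0.00 with an interval from -0.31 to 0.30.

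Across the 15 libraries, with replicate effects removed, the log2 CPM of the members varied together, with all 45 pairwise correlations above 0 and a median Pearson r of 0.808. The points share libraries and conditions, so this is a description. DUSP5 and DUSP6 had the highest r, 0.979, and the lowest values were those of IL17RD with DUSP6 (0.115), DUSP4 (0.155) and SPRED3 (0.162). IL17RD was selected on its iEF and Δ22 levels, which enter every r value with it. Its low values, and the genes most like it given next, are thus not independent of that choice. Among 13177 genes averaging at least 50 counts, those with a pattern most like IL17RD over the 15 libraries were TMEM237 (r = 0.927), ATPSCKMT (0.925), EED (0.908), ENY2 (0.900) and CDCA5 (0.896). Their range was narrower: TMEM237 averaged 123.9 ± 6.31 CPM in iEF and 86.8 ± 9.43 in DAF (SD, n = 3).

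The rest of the pathway did not move as one group. Of 85 other FGF and ERK pathway genes tested, 36 were lower and 21 higher in iLuc than in iEF, against the 22.1% and 19.5% of all genes given above, and their median was -0.13. Among FGF ligands, 5 of 16 were lower and 7 higher. These counts, like those of the other lists, include genes with few reads. The lowest log2 value among the ligands, -4.50, came from a gene with 0 counts in iLuc and 2 to 3 per library in iEF. FGF1, a ligand of all FGF receptors, had 2.48 ± 0.700 CPM in iLuc and 22.6 ± 4.07 in iEF (log2 fold change -3.20, SE 0.19, edgeR adjusted p = 9.29e-09), whereas FGF13, of the intracellular branch of the family, had 51.2 ± 5.57 CPM in iLuc and 20.1 ± 3.37 in iEF (log2 fold change 1.36, SE 0.16, edgeR adjusted p = 5.76e-06). Of 7 receptors and co-receptors, 2 were lower, FGFR1 and FGFRL1, and 2 were higher, FGFR4 among them. FGFR1 had 86.5 ± 3.99 CPM in iLuc, 229.3 ± 16.4 in iEF, 131.2 ± 25.9 in WT-EF, 221.4 ± 4.53 in DAF and 243.7 ± 9.85 in Δ22. It was lower with WT-EF than with DAF (log2 fold change -0.77, SE 0.09, edgeR adjusted p = 3.44e-05).

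In the cascade itself 9 of 20 genes were lower in iLuc and 3 higher, including the adaptor SHC1 (log2 fold change -1.17, SE 0.12), HRAS (-1.04, SE 0.14), the exchange factor SOS2 (-0.83, SE 0.10) and the kinase MAPK3 (0.58, SE 0.12). Of the 11 RAS-GAPs and RAF inhibitor genes, which lower RAS or RAF activity, 4 were lower and 3 higher. The higher ones included genes with 0 counts in every iEF library. RASA3 (-1.90, SE 0.13) and RASA1 (-1.20, SE 0.10) were among the lower ones. Among 12 other phosphatases and feedback genes, 6 were lower and 3 higher. ERRFI1, a feedback inhibitor of the EGF receptor, had 119.4 ± 15.1 CPM in iLuc, 1473.2 ± 236.3 in iEF and 572.9 ± 162.1 in WT-EF, and LRIG1, another receptor inhibitor, was higher in iLuc (1.02, SE 0.27).

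ERK target genes were divided. Of 19 tested, 10 were lower and 3 higher in iLuc than in iEF, 11 lower and 2 higher with WT-EF than in iEF, and 10 lower and 3 higher with WT-EF than with DAF. Of all genes, 22.1% were lower and 19.5% higher in the first contrast. In the second, 17.0% were lower and 3704 of 28793 higher, and in the third 16.1% were lower and 12.4% higher. The numbers of ERK targets called higher thus lay near the shares of all genes. PHLDA1 had 13.5 ± 2.68 CPM in iLuc, 1230.5 ± 263.8 in iEF, 208.5 ± 145.5 in WT-EF and 841.4 ± 269.6 in DAF (SD, n = 3). Its iLuc to iEF log2 fold change was -6.51 (SE 0.34, edgeR adjusted p = 3.38e-09). The cytokine LIF (-6.88, SE 0.63) and the stress-response gene IER3 (-4.60, SE 0.38) were lower as well. EGR1, an immediate early gene, was higher in iLuc (1.15, SE 0.22, edgeR adjusted p = 0.000667), as were EGR2 (1.06, SE 0.23) and MYC (0.64, SE 0.14).

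**Figure D4:**
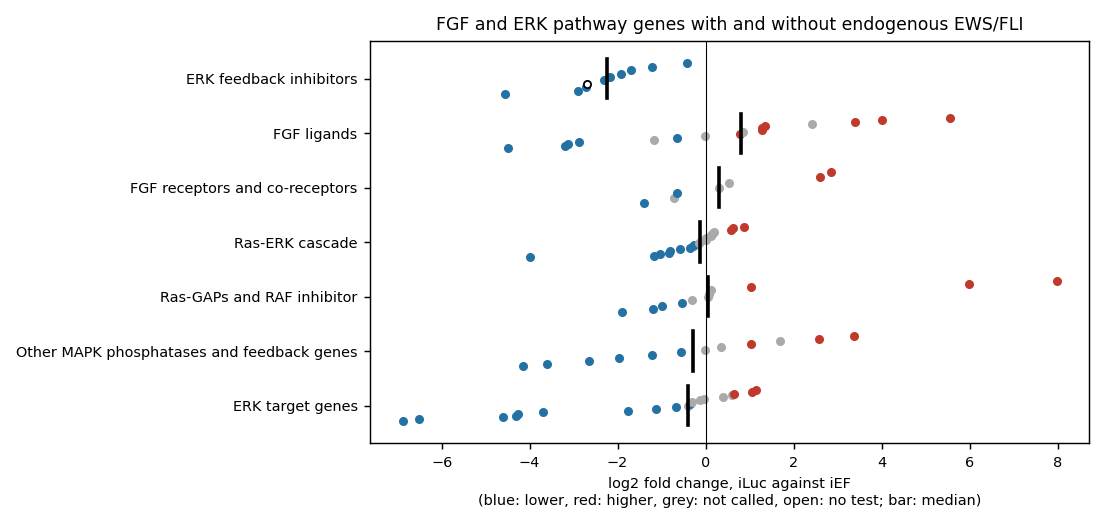
Log2 fold change of iLuc against iEF (x axis) for each tested gene of the ERK feedback inhibitors and of 6 pathway lists. Blue is lower and red higher at an adjusted p under 0.05, grey did not pass, the open point is IL17RD, which was not tested, and the bar is the median of a list. The 10 feedback inhibitors all lie under 0 with a median of -2.25, which includes IL17RD, while the other lists spread to both sides.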

How the data were processed

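RNA-seq counts of 15 A673 libraries were analysed, with condition and replicate number taken from the labels. The authors extracted total RNA with RNeasy, prepared libraries with an Illumina kit, and mapped the paired-end reads with STAR to hg19 (version 2.5.1b in the submitters' processing notes). They deposited counts per Ensembl gene from htseq-count, whole numbers with no normalization. The authors also deposited a signal table of counts adjusted with ComBat, used here for an alternative, and a table of their own comparisons with fold changes and p-values, not used here. A further 3 columns of the count table belong to other samples and were not used.

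Of 57820 genes, the 28793 with a mean of 1 count or more were tested. In R 4.3.3, edgeR 4.0.16 normalized the counts by TMM and fitted 1 quasi-likelihood model to the 15 libraries, with condition and replicate number as a block, since the authors treated each set of replicates, which spans all conditions, as a batch. Libraries of the same number correlated in their deviations from the condition means with a median r of 0.147 over 30 pairs, 19 of them over 0.1, against -0.0797 over 60 pairs of different numbers, 5 of them over 0.1. P-values were adjusted by Benjamini-Hochberg over all genes tested, with a threshold of 0.05. The fit was also run on simulated data that held no replicate effect, so that run does not check the replicate block. Coordinates are those of GRCh37 (hg19).

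The 10 members and the pathway lists were chosen with earlier results of these data known. Named genes are FLI1, the members, up to 3 genes per list and direction with the largest fold change among those that passed in iLuc against iEF with a mean of at least 50 counts, and the 5 genes most like IL17RD. A gene that this rule names is not reported here. The lists hold 22 FGF ligands, of which FGF3, FGF4, FGF6, FGF20, FGF21 and FGF23 fell below the count filter, 7 receptors and co-receptors, 20 cascade genes, 11 RAS-GAPs and RAF inhibitor genes, 13 other phosphatases and feedback genes, of which SPRY3 fell below it, and 19 ERK targets.

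Total counts had a median of 32943231 per library, and replicates differed by more than counting noise (chi-square per gene of 15.1 to 98.8 over 15 pairs). Alternatives were DESeq2 1.42.0 size factors and its Wald test, limma 3.58.1 on the ComBat-adjusted signal, other count filters, no replicate block, fits of the 6 libraries compared, and fits leaving out replicates.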

Additional observations from a re-analysis of the deposited data

How the results depend on the processing

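Each of 56 comparisons of a single member was recomputed under 25 alternatives. Of the 1400 values, 1315 kept their direction and their side of the threshold, 38 no longer passed, 16 newly passed and 31 turned in direction. These 31 belong to 8 comparisons with log2 fold changes near 0, and none of them passed in the fit as reported or in the alternative. When replicates were left out, SPRY1 in DAF against Δ22 ran from -0.01 to 0.25, SPRED3 in DAF against Δ22 from -0.34 to 0.09 and DUSP6 in DAF against Δ22 from -0.06 to 0.13. Against iEF, DAF ran from -0.16 to 0.14 for SPRED1, from -0.05 to 0.08 for SPRED2 and from -0.08 to 0.35 for SPRED3, and WT-EF from -0.05 to 0.12 for SPRED2. WT-EF against DAF ran from -0.08 to 0.09 for SPRED2. DUSP6 in DAF against Δ22 was 0.02 with only the 6 libraries compared and 0.01 with limma on the ComBat-adjusted values. For DAF against iEF, the members called higher went from 0 to 1 (DUSP6) with only the 6 libraries compared and from 0 to between 0 and 1 when replicates were left out, and the members called lower ran between 1 and 2 when replicates were left out and went from 2 to 3, SPRY2 being gained at an edgeR adjusted p of 0.0498, with only the 6 libraries compared. For WT-EF against iLuc, the members called higher ran between 5 and 10 when replicates were left out. For DAF against Δ22, the members called lower went from 0 to 4 with no filter on low counts, to 5 with only the 6 libraries compared, and to between 0 and 1 when replicates were left out. In these fits the cause was not tested. Over all genes, calls in that contrast went from 382 to 1214 and to 2744 in those first 2 fits.

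With no replicate block, the members called higher in WT-EF against iLuc were 9, and SPRY1 had a log2 fold change of 0.78 (edgeR adjusted p = 0.0765). The other calls of members did not change under that fit. The contrast of Δ22 with iEF kept its sign for all 10 members under the 25 alternatives, and IL17RD ran from -2.54 to -1.87. SPRED3 had 9 to 83 counts per library, which limits its precision.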
